A study of Mus musculus with 8 samples.

Results

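Immediate-early genes were read in islets of 4 βIgf1r and 4 βIgf1rKD mice, and RNA of the 10 genes examined did not separate the groups. The genes were Fos, Fosb, Jun, Junb, Egr1, Nr4a1, Ier2, Dusp1, Klf4 and Npas4, chosen as symbols of genes that respond to cell activity and to the stress of islet isolation. All 10 were found among the 53012 gene rows of the count table, and all 10 had enough reads to be tested. Jun alone had an unadjusted p under 0.05, with a higher mean in βIgf1rKD islets. Differences between mice of the same group were wide, above all for Nr4a1 and Egr1.

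The βIgf1rKD mice carried Ins1-CreERT2+/- and Igf1r flox/flox and received 5 daily injections of tamoxifen at 0.075 mg/g body weight. The βIgf1r mice were Ins1-CreERT2-/- and Igf1r flox/flox and received corn oil, so both groups carried the floxed allele, and Cre, tamoxifen and loss of Igf1r cannot be told apart. The methods name a rat insulin promoter as the driver of the Cre, and the genotype names Ins1. All mice were 17 months old, each group held males and females without a mark per mouse, and islets of each animal were kept apart and collected 7 days after the last injection. Islets were released with collagenase in a warm bath, washed, sieved and purified on a gradient, and neither the time from death to lysis nor the order of the isolations is given in the sources used here.

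Immediate-early genes are switched on within minutes of a stimulus without the need for newly made protein, and their RNA is short-lived. Serum response factor with its ternary complex partners carries the signal of the MAP kinases ERK1 and ERK2 to many of these genes, and CREB carries calcium and cAMP signals. In β-cells glucose and membrane depolarization are known to raise several of them, and in most tissues enzymatic dissociation does so as well. Bulk RNA does not tell which islet cell holds a transcript, and fewer cells of a type and less RNA per cell cannot be told apart.

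Promoters of the members are shown first, as the sequence next to which transcription of these genes starts. A RefSeq window of 300 bases, 250 before the start of transcription and 50 after it, was at hand for 8 of the 10 genes. Egr1 and Ier2 had none. The sequences of 4 members are printed on the strand of the gene, with TGACG, the core of the cAMP response element bound by CREB, in capitals on either strand. They are Fos, the reference gene of the class, at chr12:85473640-85473939 on the plus strand, Jun, which had the smallest p, at chr4:95052173-95052472 on the minus strand, Nr4a1, which varied most between mice, at chr15:101266596-101266895 on the plus strand, and Npas4, the gene with the lowest level, at chr19:4989922-4990221 on the minus strand, all on GRCm38.p6.
Fos: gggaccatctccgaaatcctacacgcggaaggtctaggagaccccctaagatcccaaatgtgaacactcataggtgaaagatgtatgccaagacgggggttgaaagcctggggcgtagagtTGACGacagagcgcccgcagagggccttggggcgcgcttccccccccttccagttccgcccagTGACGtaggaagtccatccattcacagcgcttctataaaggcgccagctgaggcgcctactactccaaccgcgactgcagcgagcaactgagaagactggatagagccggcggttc
Jun: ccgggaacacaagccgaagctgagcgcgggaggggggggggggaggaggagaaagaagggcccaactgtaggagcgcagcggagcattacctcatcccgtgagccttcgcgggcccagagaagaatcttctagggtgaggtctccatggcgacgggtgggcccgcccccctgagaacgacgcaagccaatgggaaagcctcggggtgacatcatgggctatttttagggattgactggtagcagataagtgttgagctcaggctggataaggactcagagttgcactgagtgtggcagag
Nr4a1: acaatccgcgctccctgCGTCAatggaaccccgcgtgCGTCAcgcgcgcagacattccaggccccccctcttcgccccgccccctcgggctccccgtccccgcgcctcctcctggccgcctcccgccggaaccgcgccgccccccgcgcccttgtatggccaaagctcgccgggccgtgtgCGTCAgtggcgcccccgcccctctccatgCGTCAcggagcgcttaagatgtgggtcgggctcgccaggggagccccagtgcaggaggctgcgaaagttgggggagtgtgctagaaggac
Npas4: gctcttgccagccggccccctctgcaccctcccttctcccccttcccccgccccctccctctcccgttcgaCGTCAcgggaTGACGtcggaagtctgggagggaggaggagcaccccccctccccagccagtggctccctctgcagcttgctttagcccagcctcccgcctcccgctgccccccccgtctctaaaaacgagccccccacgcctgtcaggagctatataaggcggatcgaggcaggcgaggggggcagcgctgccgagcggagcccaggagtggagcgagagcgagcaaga

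The core TGACG was present on either strand in 7 of the 8 windows, against 20.8% of all 32851 windows of that length, and Jun was the member without it. The Fos window held it at 129 and 66 bases before the start, and the Nr4a1 window held 4 copies, at 233, 213, 69 and 40 bases before the start. In the Npas4 window 2 copies in opposite directions began 179 and 169 bases before the start. The full palindrome TGACGTCA, which contains the core on both strands, occurred in 1 member, Dusp1, and in 1.79% of all windows. The EGR1 motif GCGNGGGCG was found in the windows of Klf4, Fosb and Nr4a1, 3 of 8 against 5.55% of all windows. The CArG box of serum response factor, found in 1.63% of all windows, and the AP-1 motif TGANTCA, found in 7.81%, occurred in 0 of the 8. These are matches of letters in a short window on both strands, and the windows set beside them were not matched for base composition. Sites outside the window and those of Egr1 and Ier2 were not searched.

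Every member is a protein-coding gene in GENCODE M21 on GRCm38. Fos (ENSMUSG00000021250) lies on chromosome 12 (plus strand, 85473890 to 85477273) and Fosb (ENSMUSG00000003545) on chromosome 7 (minus strand, 19302696 to 19310051). Jun (ENSMUSG00000052684), a gene of 1 exon, lies on chromosome 4 (minus strand, 95049034 to 95052222). Junb (ENSMUSG00000052837), from 84974484 to 84978718, and Ier2 (ENSMUSG00000053560), from 84661331 to 84662852, share the minus strand of chromosome 8. Nr4a1 (ENSMUSG00000023034) has 4 annotated transcripts on chromosome 15 (plus strand, 101254269 to 101274795), and the printed window surrounds the start that RefSeq gives, and the deposited value covers the gene as a whole.

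The libraries held 21634080 to 42391328 counts. The targeted gene, Igf1r, lay between 46.8 and 60.9 CPM (counts scaled to a common library size) in βIgf1r and between 46.9 and 57.9 CPM in βIgf1rKD islets, with a log2 fold change of -0.08 (SE 0.11, fold between 0.798 and 1.12 at 95% confidence, exact permutation test, p = 0.543). No fall of Igf1r was thus detected in these libraries, and gene counts do not isolate the floxed exon. The paper reports lower Igf1r mRNA by qPCR in islets of mice of a wider age range. It also reports less IGF1R protein, relative to PDX1, in islets of younger mice. Islet markers stood far above those of other cells except acinar cells. Ins1 ranged from 19119 to 50373 CPM and Gcg from 11938 to 38220 CPM, while Pecam1 of endothelial cells lay between 32.0 and 43.5 CPM, Ptprc of leukocytes between 3.17 and 19.9 CPM and Col1a1 of fibroblasts between 1.86 and 54.8 CPM. The 12 acinar markers together ranged from 19380 to 196680 CPM in βIgf1r and from 42811 to 238332 CPM in βIgf1rKD islets. Their sum was above that of the 9 β-cell markers in the βIgf1r mouse M152 (196680 against 179760 CPM). It was also above in the βIgf1rKD mice M145 (216819 against 127130 CPM) and M149 (238332 against 140195 CPM), but not in the other mice. All 12 acinar markers had a log2 fold change above 0 (median 0.84), where 52.3% of all genes did, and 0 had an unadjusted p under 0.05. No marker in any cell type list was without a count in all mice.

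Compared per kilobase of exon, Junb had the highest mean level over the 8 mice, at 9.12 ± 2.84 CPM per kilobase (SD, n = 8), above Jun at 6.19 ± 1.38 (SD, n = 8) in 7 of 8 mice. Nr4a1, Egr1, Fos, Ier2 and Dusp1 followed with means between 5.30 and 5.66 CPM per kilobase, and the order of neighbours among these 5 genes held in only 4 or 5 of 8 mice, so they did not differ beyond their spread. Klf4 was lower, at 2.57 ± 0.445 CPM per kilobase (SD, n = 8), below Dusp1 in 8 of 8 mice. Fosb and Npas4 stood far below, at 0.206 ± 0.0874 and 0.139 ± 0.0354 CPM per kilobase (SD, n = 8 each). The 10 genes together made up 94.3 to 168 CPM of a library.

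**Figure D1:**
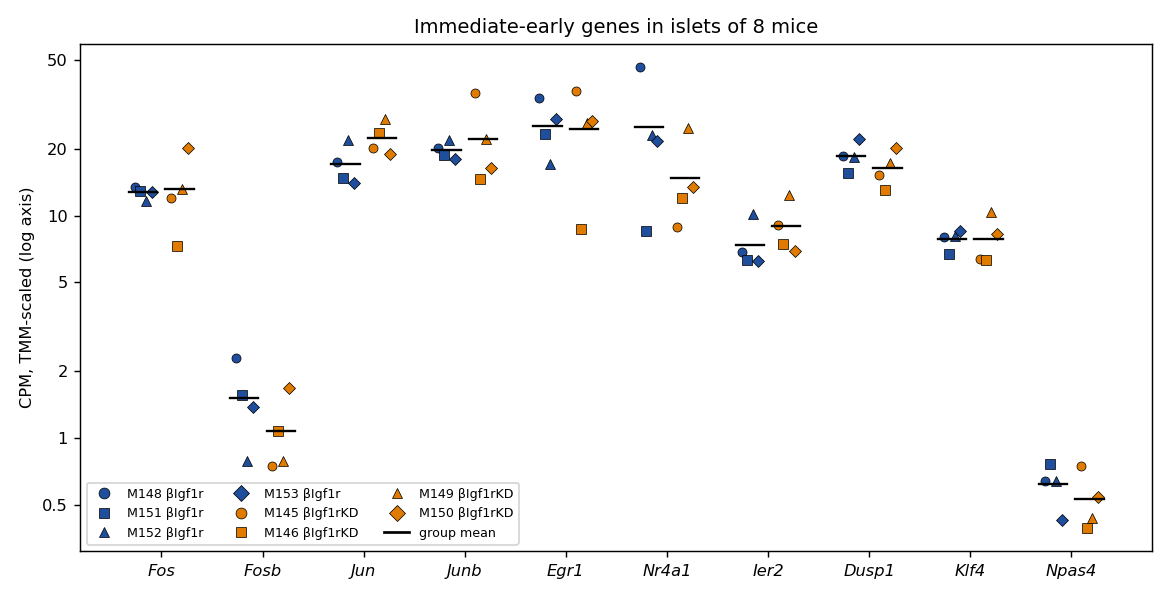
CPM after TMM scaling (log axis) of each immediate-early gene, with 1 point per mouse, βIgf1r in blue and βIgf1rKD in orange, and a black line at each group mean. The groups overlap for all 10 genes, and Nr4a1 spreads from 8.55 to 46.7 CPM among βIgf1r mice.

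To compare these genes between the groups as labelled, edgeR's quasi-likelihood test was fitted on 15474 genes. Of the 10 members, 1 had an unadjusted p under 0.05, where 4.12% of all genes tested did, 2.23% with a higher and 1.89% with a lower level in βIgf1rKD islets, and 0 had a Benjamini-Hochberg adjusted p under 0.05, where 0% of all genes did. The adjusted p of the members ran from 0.987 to 0.9996 in edgeR, and DESeq2 and limma-voom likewise called 1 member at an unadjusted p, Jun, and 0 after adjustment. By log2 fold change 4 members were above 0 and 6 below, where 52.3% of all genes were above 0, between -0.77 and 0.39, with a median of -0.03 against 0.01 over all genes. None of the 10 had groups without overlap in log2 CPM, a pattern that 2.22% of all genes showed.

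**Figure D2:**
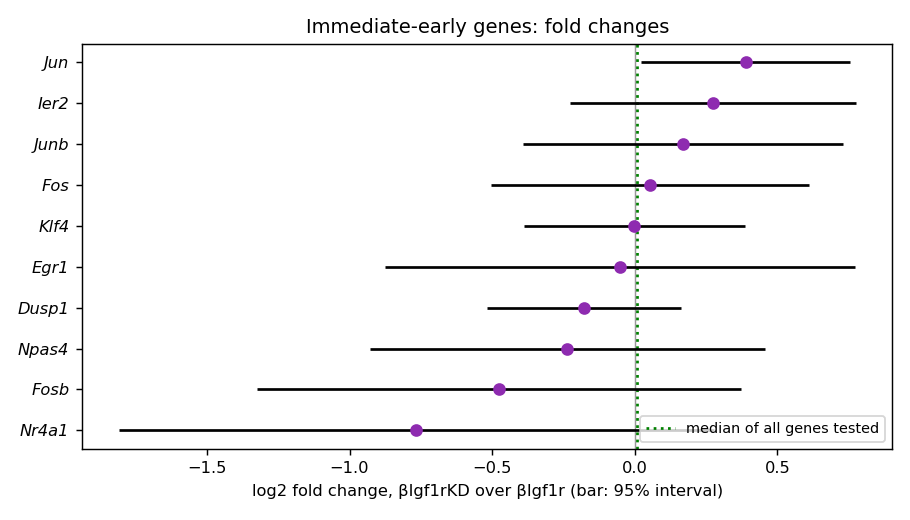
Log2 fold change of βIgf1rKD over βIgf1r for each immediate-early gene (point) with its 95% interval (bar) from edgeR, and the median of all genes tested (dotted). The interval of Jun, from 0.02 to 0.76, is the 1 that does not include 0, and those of Nr4a1, from -1.81 to 0.28, and Egr1, from -0.87 to 0.77, are wide.

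Fos and Jun proteins pair to form AP-1, a leucine zipper transcription factor. Jun, with which Fos proteins pair, was at 17.5, 14.8, 22.0 and 14.1 CPM in the βIgf1r mice M148, M151, M152 and M153. In the βIgf1rKD mice M145, M146, M149 and M150 it was at 20.1, 23.5, 27.2 and 19.0 CPM. All but 1 of the βIgf1r mice thus lay below every βIgf1rKD mouse, and M152 lay among them. The means were 17.1 ± 3.57 and 22.4 ± 3.70 CPM (SD, n = 4 each), a log2 fold change of 0.39 (standard error, SE, 0.16, edgeR, p = 0.0397, adjusted p = 0.987, and p = 0.114 in a two-sided exact permutation test on log2 CPM). The direction was the same in all 17 alternatives, but p was under 0.05 in 9 of them. With M148, M151, M153, M146 or M149 left out the log2 fold change lay between 0.28 and 0.40 and the unadjusted p was over 0.05. With library size in place of TMM factors the log2 fold change was 0.21, with an unadjusted p over 0.05. That scaling moved the median of all genes to -0.19, and relative to this median Jun stood at 0.40.

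Fos had close values in βIgf1r and scattered ones in βIgf1rKD islets. The βIgf1r mice M148, M151, M152 and M153 had 13.5, 12.9, 11.7 and 12.8 CPM. The βIgf1rKD mice M145, M146, M149 and M150 had 12.02, 7.32, 13.2 and 20.2 CPM, so that this group held both the lowest and the highest value. The log2 fold change in edgeR was 0.05 (SE 0.25), the fold between 0.705 and 1.53 at 95% confidence. The difference of mean log2 CPM had the opposite sign, at -0.04 (exact permutation test, p = 0.829). Without M150 the log2 fold change in edgeR was -0.24.

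Junb was likewise spread more widely in βIgf1rKD islets, at 35.8, 14.6, 22.2 and 16.4 CPM in M145, M146, M149 and M150. The βIgf1r mice M148, M151, M152 and M153 were at 20.2, 18.7, 21.9 and 18.01 CPM. A high value in M145 and a low one in M146 bracketed the whole control group. The log2 fold change was 0.17 (SE 0.25, exact permutation test, p = 0.829), and without M145 it was -0.15. Fosb, a Fos relative of low abundance, had 16 to 86 counts, at 2.29, 1.56, 0.783 and 1.37 CPM in M148, M151, M152 and M153 and at 0.749, 1.07, 0.783 and 1.68 CPM in M145, M146, M149 and M150. Its log2 fold change of -0.48 (SE 0.38) was near the size of its error (exact permutation test, p = 0.343).

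Egr1, a zinc-finger factor, and Nr4a1, an orphan nuclear receptor, both respond to calcium and cAMP in β-cells. They varied most among the 10 genes. Egr1 was at 33.7, 23.3, 17.02 and 27.1 CPM in M148, M151, M152 and M153 and at 36.4, 8.68, 26.2 and 26.6 CPM in M145, M146, M149 and M150. M146 had the lowest value by far and M145 the highest, a ratio of 4.19, while the group means differed little, 25.3 ± 6.98 against 24.5 ± 11.5 CPM (SD, n = 4 each). The log2 fold change was -0.05 (SE 0.37, exact permutation test, p = 0.829), and without M146 it was 0.23, without M148 0.12.

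Nr4a1 was at 46.7, 8.55, 23.1 and 21.6 CPM in the βIgf1r mice M148, M151, M152 and M153, and at 8.89, 11.996, 24.7 and 13.4 CPM in the βIgf1rKD mice M145, M146, M149 and M150. The highest and the lowest value of the whole experiment were both control mice, 5.46-fold apart. With means of 25.0 ± 15.9 and 14.8 ± 6.91 CPM (SD, n = 4 each), the log2 fold change was -0.77 (SE 0.46, edgeR, p = 0.132, adjusted p = 0.987, exact permutation test, p = 0.371). The difference shrank to -0.27 without M148 and grew to -1.05 without M151 and -1.13 without M149, both with an unadjusted p under 0.05 in edgeR. With library size in place of TMM factors it was -1.01, again with an unadjusted p under 0.05, while the smallest adjusted p of any member was 0.718. That scaling moved the median of all genes to -0.19, and relative to this median Nr4a1 stood at -0.82. The 11 endothelial markers, from 485 to 607 CPM in sum in βIgf1r and from 430 to 483 CPM in βIgf1rKD islets, moved with the groups, and with their score as a covariate the log2 fold change of Nr4a1 turned to 1.64, with an unadjusted p under 0.05 and adjusted p = 0.9996 as the smallest of any member. The part of endothelial cells in the Nr4a1 values was not tested.

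Nr4a2 and Nr4a3, the relatives of Nr4a1, bind the same DNA elements. Nr4a2 was at 11.8, 4.87, 7.72 and 9.10 CPM in M148, M151, M152 and M153 and at 5.66, 4.36, 7.66 and 6.26 CPM in M145, M146, M149 and M150. M148 had the highest value of all 8 mice for each of the NR4A genes. The log2 fold change of Nr4a2 was -0.49 (SE 0.26, exact permutation test, p = 0.2). For Nr4a3, with 1 to 33 counts, it was -1.28 (SE 0.56, edgeR, p = 0.0473, adjusted p = 0.987, exact permutation test, p = 0.0857). Its unadjusted p was at or over 0.05 in 9 of 16 alternatives, among them DESeq2, the 3 covariates and the fits without M148, M153, M145, M146 or M150, and the estimate turned to 0.75 with the endothelial score.

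Klf4 is a zinc-finger factor, Ier2 a small nuclear protein, and Dusp1 a phosphatase that removes the activating phosphates of MAP kinases. They were more even between mice than Egr1 and Nr4a1. Klf4 ranged from 6.69 to 8.53 CPM in βIgf1r and from 6.28 to 10.4 CPM in βIgf1rKD islets, with a log2 fold change of -0.001 (SE 0.17, fold between 0.764 and 1.31 at 95% confidence, exact permutation test, p = 0.8). Ier2 lay between 6.26 and 10.2 CPM and between 6.91 and 12.4 CPM, a log2 fold change of 0.27 (SE 0.22, exact permutation test, p = 0.314). Dusp1 lay between 15.5 and 22.2 CPM and between 13.1 and 20.2 CPM, a log2 fold change of -0.18 (SE 0.15, fold between 0.699 and 1.12 at 95% confidence, exact permutation test, p = 0.343). For Klf4 and Dusp1 the intervals leave little room for a change beyond 1.5-fold, whereas for Nr4a1 a fold between 0.285 and 1.21 remained possible.

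Npas4, a basic helix-loop-helix factor that calcium entry induces in neurons and β-cells, was barely detected. Its counts were 24, 21, 18 and 9 in M148, M151, M152 and M153 and 16, 11, 10 and 22 in M145, M146, M149 and M150. The ranges in CPM overlapped almost wholly, 0.427 to 0.764 in βIgf1r and 0.393 to 0.749 in βIgf1rKD islets. The log2 fold change was -0.24 (SE 0.31, exact permutation test, p = 0.400). At this depth a fold between 0.526 and 1.37 could not be told from none.

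The spread among mice of the same group was larger for these genes than for most others. The standard deviation of log2 CPM within groups had a median of 0.39 over the members and 0.20 over all genes tested, and it was above the latter for all 10. Nr4a1, at 0.83, exceeded 94.8% of all genes, Egr1, at 0.70, exceeded 92.6%, and Fosb, at 0.56, exceeded 88.5%, while Dusp1, at 0.24, exceeded 59.3%. Fosb and Npas4 are also the members with the fewest counts, 16 to 86 and 9 to 24 per mouse.

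**Figure D3:**
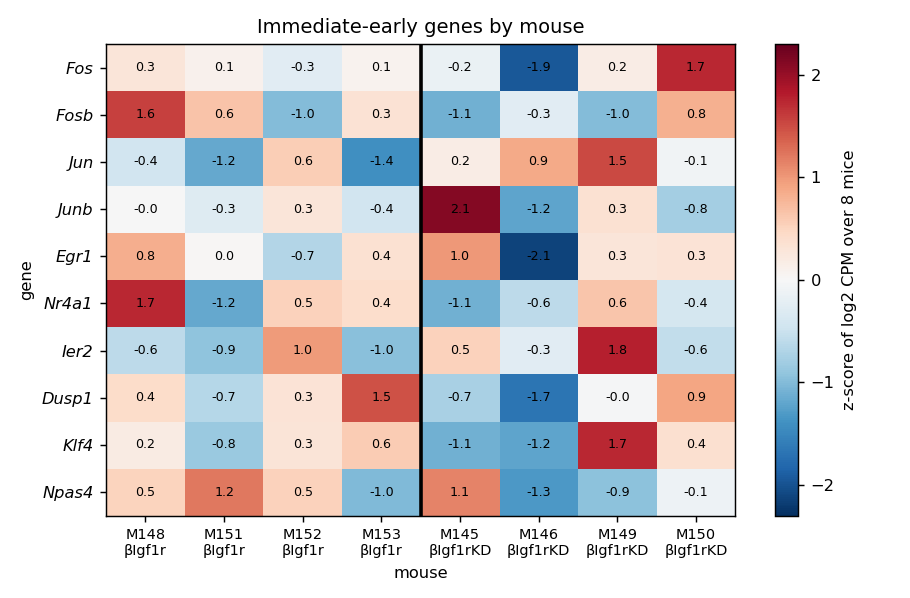
Z-score of log2 CPM over the 8 mice for each immediate-early gene (rows) in each mouse (columns), with βIgf1r mice left and βIgf1rKD mice right of the black line. M146 holds the lowest value of 6 genes, and M149 the highest of 3.

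Mouse M146 of the βIgf1rKD group was the lowest of all 8 mice for Fos, Junb, Egr1, Dusp1, Klf4 and Npas4, 6 of the 10 genes, yet had the second highest Jun. M149 of the same group was the highest for Jun, Ier2 and Klf4, and M148 of the βIgf1r group for Fosb and Nr4a1. The mean z-score over the members was 0.45 in M149 and in M148 and -0.98 in M146. By group it was 0.06 ± 0.32 in βIgf1r and -0.06 ± 0.63 in βIgf1rKD mice (SD, n = 4 each). Without M146 the median log2 fold change of the members was 0.16, and 0 members had an unadjusted p under 0.05.

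M146 and M149 were also the lowest and the highest mouse in fibroblast and pericyte markers. The 9 fibroblast and pericyte markers, all of them detected, summed to 112 CPM in M146 and 367 CPM in M149, against 161 and 234 CPM in the other βIgf1rKD mice and 200 to 227 CPM in βIgf1r mice. The 12 acinar markers summed to 42811 CPM in M146 and to 143413 to 238332 CPM in the other βIgf1rKD mice, but 2 βIgf1r mice were lower still, M148 at 19380 CPM and M151 at 33612 CPM. Transcripts of the mitochondrial genome made up 0.809% of the counts in M146 and 0.492% in M152, against 2.02% to 3.87% in the other mice. The part of these differences in the values of the immediate-early genes was not tested.

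The members did not rise and fall as 1 group from mouse to mouse. Over the 45 pairs, Pearson's r of log2 CPM across the 8 mice had a median of 0.15 and ran from -0.81 to 0.85, with 27 pairs above 0 and 18 below. Jun and Ier2 had the highest value, r = 0.85 (permutation p = 0.00764, adjusted over 45 pairs p = 0.344; Spearman's rho = 0.93, permutation p = 0.00223, adjusted p = 0.100), and r = 0.67 without M149 and M153, the mice farthest from the median of Jun. Fosb and Ier2 ran opposite, r = -0.81 (permutation p = 0.0180, adjusted p = 0.406; Spearman's rho = -0.69, permutation p = 0.0694, adjusted p = 0.681), and r = -0.90 without M145 and M148. Fos went with Dusp1 at r = 0.72 (permutation p = 0.0452, adjusted p = 0.570, Spearman's rho = 0.57, permutation p = 0.151, adjusted p = 0.681). Without M146 and M150, the mice farthest from the median of Fos, r was 0.22. Leaving out such mice narrows the range of Fos, which can lower r by itself. No pair passed the adjustment, and with the group means removed the values of r were 0.84, -0.77 and 0.76. The labels give no batch within which to repeat them.

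**Figure D4:**
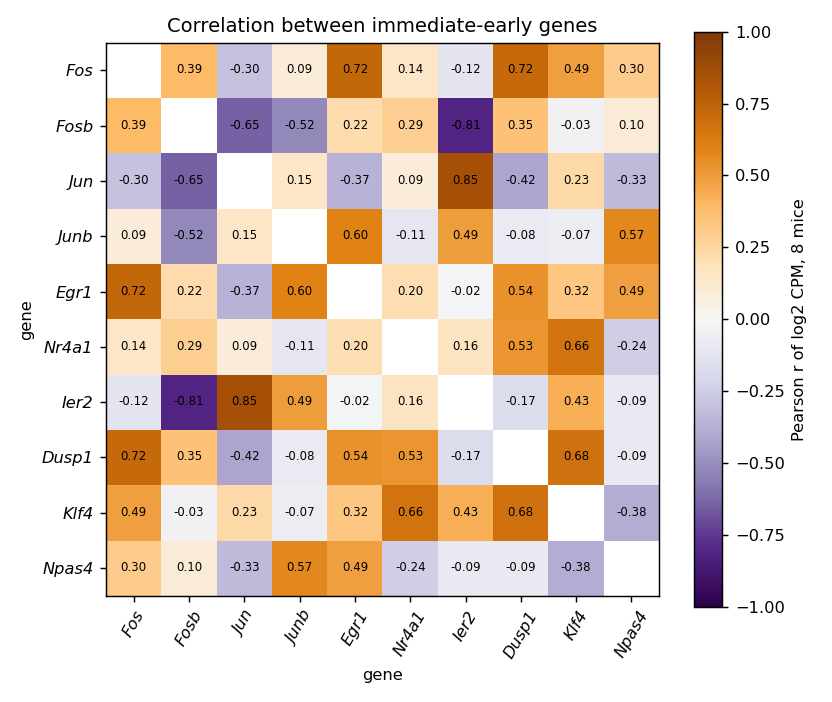
Pearson's r of log2 CPM over the 8 mice for each of the 45 pairs of immediate-early genes (both axes list the genes), from -1 (purple) to 1 (orange). Jun and Ier2, at 0.85, and Fosb and Ier2, at -0.81, are the extremes.

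The rest of the immediate-early pathway was followed in lists written from general knowledge, but with earlier results of these data known. Their shares beside those of all genes are thus a description. Genes are named here if their unadjusted p was under 0.05 or if they had the highest level of the list. Of 63 further immediate-early and feedback genes, 55 were tested, and 4 reached an unadjusted p under 0.05 in edgeR, 3 above and 1 below 0 in log2 fold change, or 7.27% beside 4.12% of all genes. Their median log2 fold change was 0.06, and 0 passed the adjustment. Fosl1, Egr2, Egr3, Egr4, Ptgs2, Cxcl1, Ccl2 and Dusp2 had too few counts to be tested.

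The AP-1 relatives Fosl2, Jund, Atf3, Maff and Jdp2 all had a log2 fold change above 0, where 52.3% of all genes did. Of these 5, 0 had an unadjusted p under 0.05. Jund, the most abundant, was at 36.4 ± 9.26 CPM in βIgf1r and 46.7 ± 15.9 CPM in βIgf1rKD islets (SD, n = 4 each, log2 fold change 0.36, SE 0.25). Of the 3 KLF genes and of the 10 feedback inhibitors tested, 0 had an unadjusted p under 0.05. Klf6 had a log2 fold change of -0.10 (SE 0.24), and Dusp5, a nuclear phosphatase of ERK, one of -0.20 (SE 0.14). The medians of these lists were -0.10 and -0.13.

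Among 35 other immediate-early genes tested, 26 had a log2 fold change above 0, where 52.3% of all genes did, and the median was 0.17. The genes with an unadjusted p under 0.05 were Myc, Trib1 and Socs3, or 8.57% beside 4.12% of all genes. Trib1, a pseudokinase that brings proteins to a ubiquitin ligase, was at 28.5, 26.0, 27.9 and 32.7 CPM in M148, M151, M152 and M153 and at 46.2, 40.7, 31.1 and 34.5 CPM in M145, M146, M149 and M150. Only M149 fell within the range of the controls. The log2 fold change was 0.41 (SE 0.13, edgeR, p = 0.0108, adjusted p = 0.987, exact permutation test, p = 0.0571), between 0.30 and 0.49 with any mouse left out and its unadjusted p was under 0.05 in 15 of 17 alternatives. The exceptions were library size in place of TMM factors, with 0.22, and the endothelial score as a covariate, with 0.28. With library size alone the median of all genes was -0.19.

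Myc, a growth-related transcription factor, was at 3.14, 3.78, 3.60 and 3.98 CPM in M148, M151, M152 and M153, whereas M145, M146, M149 and M150 had 11.1, 2.93, 10.8 and 4.39 CPM. M145 and M149 were high and the other βIgf1rKD mice near the controls. The acinar marker sum was 216819 CPM in M145 and 238332 CPM in M149, but also 196680 CPM in M152, where Myc was at the control level, and the part of acinar cells in the Myc values was not tested. For Myc the log2 fold change of 1.003 (SE 0.39, edgeR, p = 0.0294, exact permutation test, p = 0.229) was 0.49 with the acinar score as a covariate, and its unadjusted p was at or over 0.05 in 9 of 17 alternatives. Socs3, an inhibitor of cytokine signaling, had a log2 fold change of 0.65 (SE 0.28, edgeR, p = 0.0466, exact permutation test, p = 0.171). Its unadjusted p was at or over 0.05 in 11 of 17 alternatives, among them limma-voom, the 3 covariates and 6 of the 8 fits with a mouse left out, and the estimate was 0.30 without M145 and -0.10 with the endothelial score. Btg2, the most abundant gene of the list, differed by 0.17 (SE 0.10).

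**Figure D5:**
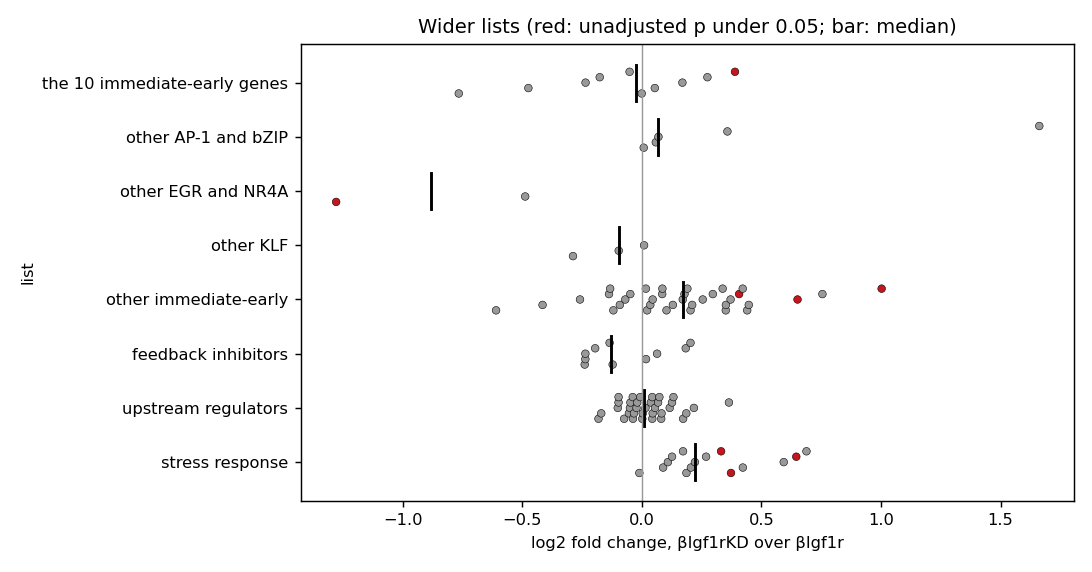
Log2 fold change of βIgf1rKD over βIgf1r for each tested gene (points, red at an unadjusted p under 0.05) of the 10 immediate-early genes and the 7 wider lists, with a black bar at each median. The upstream regulators lie between -0.18 and 0.36, and the 15 stress response genes have a median of 0.22.

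The 34 upstream kinases, phosphatases and transcription factors were all tested, and 0 had an unadjusted p under 0.05. Their median was 0.01 and their range -0.18 to 0.36 in log2 fold change. Mapk3, which encodes ERK1 and was the most abundant, was at 166 ± 10.6 CPM in βIgf1r and 164 ± 13.9 CPM in βIgf1rKD islets (SD, n = 4 each), a log2 fold change of -0.02 (SE 0.09).

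The stress list held 15 chaperone and stress response genes, several of which heat and proteotoxic stress are known to induce. Of these 15 genes, 14 had a log2 fold change above 0, where 52.3% of all genes did. An unadjusted p under 0.05 was found for 3, all higher in βIgf1rKD islets, or 20% beside 4.12% of all genes. The summed level of the list was 2921 to 3707 CPM in βIgf1r and 3500 to 4061 CPM in βIgf1rKD islets. Bag3, a cochaperone of Hsp70, was at 19.0, 15.5, 18.2 and 16.8 CPM in M148, M151, M152 and M153 and at 23.2, 21.5, 23.4 and 19.5 CPM in M145, M146, M149 and M150. Every βIgf1rKD mouse was above every βIgf1r mouse, with a log2 fold change of 0.33 (SE 0.10, edgeR, p = 0.00724, adjusted p = 0.987, exact permutation test, p = 0.0286, the smallest that 4 mice against 4 allow). Groups without overlap were found for 2.22% of all genes. The log2 fold change of Bag3 was 0.13 with library size in place of TMM factors, with an unadjusted p over 0.05. The median of all genes was then -0.19.

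The others were Dnajb1, an Hsp40 protein, with a log2 fold change of 0.37 (SE 0.15, edgeR, p = 0.0337, exact permutation test, p = 0.143), and Hspa1a, an inducible Hsp70 gene, with 0.65 (SE 0.27, edgeR, p = 0.0419, exact permutation test, p = 0.114). Hspa1a and Hspa1b are near-identical copies between which the authors' counting could have split reads. For Dnajb1 and Hspa1a p was at or over 0.05 in 7 and 8 of 17 alternatives. Hspa8, the constitutive Hsp70 gene and the most abundant of the list, was at 1205 ± 163 and 1451 ± 89.7 CPM (SD, n = 4 each). Its log2 fold change was 0.27 (SE 0.15, edgeR, p = 0.108), although its groups did not overlap (exact permutation test, p = 0.0286), as in 2.22% of all genes.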

How the data were processed

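Islet RNA of 8 mice was purified with a micro column kit and sequenced from stranded mRNA libraries. The authors deposited an estimated count per Ensembl gene and mouse, not scaled between mice. The submitters' processing notes name fastp, kallisto and GRCm38; versions and annotation release are not given in the sources used here. Columns were matched to mice by number, and mouse numbers are not shared between groups. Of the 53012 identifiers 51906 had a symbol.

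The estimated counts were rounded. The filter of edgeR 4.0.16 (the equivalent of 10 counts in 4 or more mice, and 15 in total) kept 15474 genes. TMM factors and the quasi-likelihood test were applied in R 4.3.3, with Benjamini-Hochberg adjustment over all genes, and the scripts were tested on simulated data. The SE is the log2 fold change divided by the square root of F. TMM factors enter CPM, and log2 CPM adds a prior count of 2. For single genes a two-sided exact permutation test was run on log2 CPM over 70 assignments of mice, whose smallest p is 0.0286. P-values measure the spread between animals. Total counts of 21634080 to 42391328 leave genes such as Npas4, with 9 to 24 counts, imprecise. Coordinates and exon lengths are those of GENCODE M21, promoters those of RefSeq.

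The members and lists were chosen with earlier results of these data known. Named were all members, list genes at an unadjusted p under 0.05, the most abundant gene of each list, the first marker of a cell type, and the 5 genes that follow the members' mean z-score most closely, of which 1 is not reported here. Alternatives were DESeq2 1.42.0, RLE size factors, limma-voom (limma 3.58.1), no filter, at least 10 counts in every mouse, an acinar score, an endothelial score or Xist as a covariate, a prior count of 0.5, and each mouse left out. Library size without TMM was added after seeing the data. No mouse was assigned a sex.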

Additional observations from a re-analysis of the deposited data

Results flagged for a closer look

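Among 94 groups of 4 mice, 5 held a mouse far from the other 3, where about 1 in 20, or 4.70, is given by chance, and 0 of the 5 concerned the 20 groups of the 10 immediate-early genes. Dusp5 was at a log2 CPM of 4.59 in M151, against 5.11 to 5.20 in the other βIgf1r mice, and at 5.05 in M146, against 4.74 to 4.76 in the other βIgf1rKD mice. M151 also had the lowest summed level of the feedback inhibitors, 114 CPM against 133 to 136 CPM in the other βIgf1r mice, and the highest sum of the α-cell markers, 40281 CPM against 14875 to 18858 CPM. Irgm1 was at a log2 CPM of 3.99 in M148, against 3.87 to 3.88 in the other βIgf1r mice.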

How the results depend on the processing

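Precision was limited by 4 mice per group and, for Fosb, Npas4 and Nr4a3, by low counts. In edgeR 637 genes had an unadjusted p under 0.05, 54.2% of them higher in βIgf1rKD islets, and this number was 1098 without a filter, 385 with the acinar score and 1143 with Xist as a covariate, and 383 to 1114 with a mouse left out (fewest without M148, most without M152; 402 without M153 and 960 without M146). An adjusted p under 0.05 was reached by 8 genes in DESeq2, by 1 in limma-voom and by 1 with library size alone, and by 0 under the other settings. The members had no adjusted p under 0.05 under any alternative run; the smallest was 0.657, with Xist. The number of members with an unadjusted p under 0.05, 1 in the analysis reported, was 0 with the acinar score, 2 with Xist (Jun and Ier2), and 0 to 1 with a mouse left out (0 without M148, M153 or M146). Where 1 remained it was Nr4a1 and not Jun with the endothelial score, with library size alone, without M151 and without M149. Of the 104 genes of the wider lists 7 had an unadjusted p under 0.05, or 6.73% beside 4.12% of all genes. The number was 12 in DESeq2, where 701 of 15474 genes had such a p, and 4 with the acinar score. Without a filter it was 11, Egr4 from outside the 104 among them, where 1098 of 27738 genes had such a p. With a mouse left out it was 3 to 13 (3 without M153, 4 without M148, 13 without M149, where 402, 383 and 582 of all genes had such a p).

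The median log2 fold change of the members, -0.03, was 0.22 with the endothelial score and -0.29 with library size alone. That scaling moved the median of all genes in the same direction but by less, from 0.01 to -0.19, and the share of calls that were higher to 32.6%. Relative to the median of all genes Fos, Jun, Junb and Nr4a1 stood at 0.0044, 0.40, 0.10 and -0.82.

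Fos was at -0.0068 in limma-voom, -0.043 with the acinar score, -0.19 with library size alone, and -0.24 to 0.25 with a mouse left out. Junb was at -0.046 with the acinar score, -0.19 with the endothelial score, -0.088 with library size alone, and -0.15 to 0.32 with a mouse left out. Egr1 lay between -0.30 and 0.23 and Klf4 between -0.16 and 0.091 with a mouse left out, and Klf4 was at 0.16 with Xist. With the endothelial score larger differences turned as well, and Fosb was at 0.18, Egr1 at 0.22, Nr4a1 at 1.64, Dusp1 at 0.15, Klf4 at 0.47, Nr4a3 at 0.75, Hspa1a at -0.14 and Socs3 at -0.10. The endothelial score was itself higher in every βIgf1r mouse than in any βIgf1rKD mouse, so score and group cannot be told fully apart in that fit. The cause of the changes of sign was not tested. Jun, Ier2 and Npas4 kept their sign under every alternative run, and a prior count of 0.5 changed no sign or call in the permutation tests. No paired analysis was possible because the groups share no mouse number.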

Other observations

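Among the genes whose log2 CPM followed the mean z-score of the members most closely over the 8 mice, out of 10584 genes with a mean of at least 5 CPM, were Irgm1, an interferon-induced GTPase (Pearson's r = 0.94), Ptk2, which encodes focal adhesion kinase (r = 0.92), Pros1, which encodes protein S (r = 0.90), and Gm29562 (r = 0.88). They are given as a description, since 37 genes of this search reached an r above 0.8 and 113 fell below -0.8 with only 8 mice, and M146, which was lowest for 6 of the members, enters every value. By edgeR's quasi-likelihood test 0 of these 4 differed between the groups at an unadjusted p under 0.05, with log2 fold changes between -0.26 and 0.02.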
